A study of Mus musculus with 117 samples.

Results

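Stable state 1 regions are the stretches of the mouse autosomes that hepatocytes of 9 inbred strains share in one chromatin state, numbered 1 of 14 in a genome-wide segmentation. They were chosen by the state calls themselves: a 200-bp bin was a member when it was in state 1 in at least 7 of the 9 strains, and adjacent member bins were merged into a region. The rule gave 232608 bins, 1.89% of the 12313718 autosomal bins and 44.3% of the 525667 bins that were in state 1 in at least 1 strain. Merged, they made 42221 regions covering 46.5 Mb, against 66861 regions when a single strain was enough.

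The series profiled hepatocytes, the main cells of the liver parenchyma, from female mice aged 12 weeks, with no treatment named in the labels. Of the strains, 6 are classical laboratory strains (C57BL/6J, DBA/2J, A/J, 129S1/SvImJ, NZO/HlLtJ and NOD/ShiLtJ) and 3 are wild-derived (WSB/EiJ, PWK/PhJ and CAST/EiJ). Chromatin immunoprecipitation with sequencing was done for 4 histone modifications (H3K4me1, H3K4me3, H3K27ac and H3K27me3) in 3 mice of each strain, with 1 input library per strain, which makes 13 libraries per strain and 117 in all. The segmentation holds 1 call per bin and strain, made from all libraries of that strain, so there is no value per mouse and no read depth, and every spread given here is over the 9 strains (n = 9). The strains share ancestry, so they are not fully independent, and a state call that differs between strains cannot be told apart from a difference in read mapping or depth.

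A chromatin state is a recurring combination of histone modifications. Promoters of active genes carry H3K4me3 and H3K27ac around the start, enhancers and the flanks of promoters carry H3K4me1, with H3K27ac where they are active, and genes held silent by Polycomb carry H3K27me3. In hepatocytes, nuclear receptors and the factors of the HNF, FOXA and C/EBP families bind such enhancers and promoters at genes for plasma proteins and for lipid, amino acid and xenobiotic metabolism. The files give no modification for any state number, so state 1 and its neighbours are described here by their number and by where they lie.

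Some gene starts lay inside state 1 itself. The promoters of 5 liver genes are shown because the 250 bases before their start were in state 1 in 9 of 9 strains, together with 3 promoters that were in state 3 in 9 of 9 strains; state 3 is the state most often found at gene starts here. Each is written from 5′ to 3′ on the strand of the gene, with every CG dinucleotide in capitals, and comes from RefSeq for GRCm38.p6, the assembly called mm10 in the submitters' processing notes. The first is Apoa2, the second most abundant protein of high-density lipoprotein, at chr1:171221314-171221563 on the plus strand, then Serpinc1, antithrombin, at chr1:160978333-160978582 (plus), Cyp1a2, a drug-metabolising cytochrome P450, at chr9:57683656-57683905 (minus), Crp, C-reactive protein, at chr1:172697806-172698055 (plus), and Cyp3a11, another drug-metabolising cytochrome P450, at chr5:145879855-145880104 (minus).
Apoa2: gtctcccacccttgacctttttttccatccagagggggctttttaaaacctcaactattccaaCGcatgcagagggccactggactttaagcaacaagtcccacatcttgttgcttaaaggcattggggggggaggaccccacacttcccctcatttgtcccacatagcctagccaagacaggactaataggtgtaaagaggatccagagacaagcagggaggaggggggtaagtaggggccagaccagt
Serpinc1: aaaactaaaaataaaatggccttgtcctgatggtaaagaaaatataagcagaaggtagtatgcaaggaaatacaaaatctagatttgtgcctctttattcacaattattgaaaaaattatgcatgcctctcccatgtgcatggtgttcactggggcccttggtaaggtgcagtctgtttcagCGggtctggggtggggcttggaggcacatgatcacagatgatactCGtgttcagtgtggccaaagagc
Cyp1a2: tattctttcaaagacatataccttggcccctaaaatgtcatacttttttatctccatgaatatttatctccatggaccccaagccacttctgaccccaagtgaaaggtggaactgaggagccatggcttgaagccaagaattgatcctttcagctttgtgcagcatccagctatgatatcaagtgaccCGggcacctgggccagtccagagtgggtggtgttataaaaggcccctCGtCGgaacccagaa
Crp: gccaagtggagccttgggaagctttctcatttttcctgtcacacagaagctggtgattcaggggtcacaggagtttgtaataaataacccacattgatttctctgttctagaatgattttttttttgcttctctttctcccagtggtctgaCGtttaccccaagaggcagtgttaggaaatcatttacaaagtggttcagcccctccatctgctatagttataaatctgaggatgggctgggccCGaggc
Cyp3a11: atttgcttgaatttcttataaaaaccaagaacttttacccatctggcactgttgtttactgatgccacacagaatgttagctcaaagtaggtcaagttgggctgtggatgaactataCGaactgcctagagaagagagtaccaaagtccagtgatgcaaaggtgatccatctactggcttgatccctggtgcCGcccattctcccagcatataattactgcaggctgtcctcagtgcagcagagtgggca
The 3 promoters in state 3 belong to Eef1a1, the elongation factor that brings aminoacyl-tRNA to the ribosome, at chr9:78481725-78481974 (minus), Polr2a, the largest subunit of RNA polymerase II, at chr11:69758634-69758883 (minus), and Nr5a2, a nuclear receptor that regulates bile acid and cholesterol genes, at chr1:136960449-136960698 (minus).
Eef1a1: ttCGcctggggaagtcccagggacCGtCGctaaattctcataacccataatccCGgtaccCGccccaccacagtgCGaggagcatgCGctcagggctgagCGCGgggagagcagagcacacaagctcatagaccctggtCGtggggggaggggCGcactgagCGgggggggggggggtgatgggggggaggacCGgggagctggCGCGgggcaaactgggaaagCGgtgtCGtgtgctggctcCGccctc
Polr2a: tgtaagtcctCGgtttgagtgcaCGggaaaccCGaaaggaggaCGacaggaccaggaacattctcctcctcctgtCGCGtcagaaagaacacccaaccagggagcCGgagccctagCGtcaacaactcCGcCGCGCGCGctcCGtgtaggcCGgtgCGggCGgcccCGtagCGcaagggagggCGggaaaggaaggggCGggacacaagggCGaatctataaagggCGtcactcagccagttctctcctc
Nr5a2: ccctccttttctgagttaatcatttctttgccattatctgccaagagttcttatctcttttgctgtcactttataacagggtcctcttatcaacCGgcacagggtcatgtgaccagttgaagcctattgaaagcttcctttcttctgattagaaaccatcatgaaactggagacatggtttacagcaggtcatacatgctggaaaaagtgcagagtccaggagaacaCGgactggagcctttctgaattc

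The 5 promoters in state 1 held 1 to 3 CG dinucleotides each, and their ratio of observed to expected CG (the CG count times the length, over the product of the C and G counts) ranged from 0.0592 in Apoa2 to 0.217 in Cyp1a2. All 5 lay below the median ratio, 0.308 (quartiles 0.165 and 0.490), of the 471 starts with their whole window in state 1 in 9 of 9 strains. Of those starts, 15.3% had a ratio of 0.6 or more, so the 5 do not stand for the whole range. Eef1a1 held 18 CG dinucleotides with a ratio of 0.652 and Polr2a held 23 with a ratio of 0.935. Nr5a2, chosen after its sequence was seen, was in state 3 with only 2 CG dinucleotides and a ratio of 0.172, so few CG dinucleotides were found in state 3 as well. The letters TATAAA stood 29 bases before the start in Cyp1a2, 31 in Crp and 33 in Polr2a.

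Promoter composition over all autosomal protein-coding genes is given as a description, with no test. Of 20085 listed starts (16457 genes), 1593 lay in a stable state 1 bin, 7446 in a stable state 3 bin, and 471 starts of 429 genes had their whole promoter window in state 1 in 9 of 9 strains. The median CG ratio over the 250 bases was 0.425 at starts in stable state 1 and 0.308 at those with the whole window in state 1, against 0.812 at starts in stable state 3, 0.355 in stable state 13, 0.155 in stable state 14 and 0.547 over all starts. Median GC content was 52.8% at starts in stable state 1, 62.4% in stable state 3 and 56% over all. Taking 1 start per gene gave medians of 0.434 for state 1 and 0.806 for state 3.

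Short motifs were searched on both strands of the same 250 bases. The SP box GGGCGG was in 34.1% of the starts in stable state 1, 66.8% of those in stable state 3 and 43.4% of all. The ETS motif CCGGAAG was in 5.15%, 18.9% and 9.21% in the same order. The C/EBP motif TTGCNNAA was in 11.0%, 6.70% and 9.19%, the short HNF1 motif GTTAAT in 7.91%, 3.33% and 5.84%, the HNF4A motif CAAAGTCCA in 1.07%, 0.282% and 0.398%, and the TATA box TATAAA in 9.79%, 4.66% and 11.7%. Starts in stable state 14 held the C/EBP motif in 13.4%, the HNF1 motif in 9.42%, the TATA box in 25.6% and the HNF4A motif in 0.312%, so the first 3 were more frequent there than at starts in stable state 1. Starts in stable state 13 held the C/EBP motif in 8.02%, the HNF1 motif in 7.13% and the HNF4A motif in 0.0742%. Where the whole window was in state 1 in 9 of 9 strains, the shares were 13.2%, 11.0% and 0.637% in that order. Overlaps between motifs were kept, and the shares were not corrected for GC content. Apoa2 held 2 C/EBP matches, 164 and 140 bases before the start, and Cyp3a11 held an HNF4A match 109 bases before it. A match describes the letters in this window, not a bound site.

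MicroRNAs lay in these regions too. Of 919 autosomal hairpins, 69 (7.51%) lay wholly inside a stable state 1 region, 47 of them in bins that were in state 1 in 9 of 9 strains. A mature sequence was listed for 68 of the 69, with 120 mature sequences and 114 seeds, the bases at positions 2 to 8 through which a microRNA pairs with its targets. The mature sequences below are shown because they share a seed or are known for their high level in liver, and their seed is in capitals. The seed CAGUGCA was shared by the products of 3 genes on 3 chromosomes, Mir148a at chr6:51269829-51269850, Mir148b at chr15:103285185-103285206 and Mir152 at chr11:96850439-96850459, each in a region of its own of 2200, 2600 and 600 bp.
mmu-miR-148a-3p: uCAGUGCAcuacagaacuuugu
mmu-miR-148b-3p: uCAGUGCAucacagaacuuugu
mmu-miR-152-3p: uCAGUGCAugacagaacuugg
The seed AACAGUC was shared by Mir132 and Mir212, which lay together in a region of 600 bp on chromosome 11.
mmu-miR-132-3p: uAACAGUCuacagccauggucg
mmu-miR-212-3p: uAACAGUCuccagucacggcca
Mir192 and Mir194-2, a pair processed from one transcript, lay in a region of 6400 bp at chr19:6264601-6271000, Mir802 in one of 3400 bp, Mir22 in one of 2800 bp and Mir21a in one of 7200 bp.
mmu-miR-192-5p: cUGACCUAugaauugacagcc
mmu-miR-194-5p: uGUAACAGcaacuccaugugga
mmu-miR-802-5p: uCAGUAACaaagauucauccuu
mmu-miR-22-3p: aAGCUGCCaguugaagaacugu
mmu-miR-21a-5p: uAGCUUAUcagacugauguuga
State 1 covered the hairpins of Mir192, Mir802, Mir22, Mir21a and Mir152 in 9 strains, of Mir148a, Mir148b, Mir132 and Mir194-2 in at least 8, and of Mir212 in at least 7.

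Most members were shared by every strain. By the rule that chose them, 149535 member bins (64.3%) were in state 1 in 9 strains, 47147 (20.3%) in 8 and 35926 (15.4%) in 7. Just outside the threshold lay 31542 bins in state 1 in 6 strains. Of the bins at 7 strains, 15.7% lay within 1 kb of a gene start, against 14.3% at 6 strains and 24.1% at 9. Of the 42221 regions, 31134 (73.7%) had state 1 in at least 1 bin in all 9 strains, 5770 had none in exactly 1 strain, and 5317 had none in at least 2.

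The regions were short and lay mostly in genes. Their median length was 800 bp, 90% lay between 200 and 3400 bp, and 4648 (11.0%) were a single bin. The 847 regions of 5 kb or more held 12.6% of the total length, and 74 reached 10 kb. Stable regions of states 2, 3, 4, 6 and 8 had medians of 400 to 600 bp. Of the member bins, 68.4% lay in a protein-coding gene, against 40.1% of all autosomal bins. The share was higher for stable states 2 (69.3%), 6 (74.7%), 8 (83.1%) and 3 (86.5%), and lower for state 4 (54.5%). Density ran from 12.2 regions per Mb on chromosome 14 to 26.9 on chromosome 19.

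Regions were divided by their distance to the nearest gene start. Within 1 kb of the start of a protein-coding gene lay 16798 (39.8%), between 1 and 10 kb 9668 (22.9%), and over 10 kb from any start 15755 (37.3%); where no start was listed for a gene, both of its ends stood in for it. By bins, 21.5% of stable state 1 was within 1 kb of a start, against 83.9% of stable state 3, 18.3% of state 8, 2.22% of state 4, 1.46% of state 2, 0.940% of state 6 and 2.25% of all bins. The share of bins in state 1 in 9 of 9 strains was 72.0% near starts, 61.1% at 1 to 10 kb and 59.0% beyond.

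Of the 20 longest regions, 19 overlapped a protein-coding gene. The longest, 22600 bp, lay in Acsl1, which activates long-chain fatty acids, at chr8:46481801-46504400; it came within 1 kb of a gene start, and each strain had state 1 in at least 96.5% of it (the lowest was NZO/HlLtJ). The next lay in Cat, catalase (20600 bp), Abhd17c (19200 bp), Slc25a13, the mitochondrial aspartate-glutamate carrier (19000 bp), Fdft1, squalene synthase (18400 bp), and Cyb5a, cytochrome b5 (18000 bp). Regions of 16800 bp lay in Gpam, which starts glycerolipid synthesis, and 7374 bp from Frmd8, the nearest protein-coding gene. Genes of other kinds were not looked up at these regions. The rest of the 20 longest were in Npc1, the lysosomal cholesterol exporter, Adh7, B4galt5, Sar1b, Dnajb11, Pigr, C130074G19Rik, Clmn, Bcl6, Mapkapk2, Nr1i2 and Adk, the last with 14000 bp. In Dnajb11, an endoplasmic reticulum co-chaperone, all 76 bins were in state 1 in all 9 strains. Over these 20 regions the lowest value of any strain was 85.7%, in the regions at Frmd8 (WSB/EiJ) and Gpam (CAST/EiJ).

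Counted per gene and the 5 kb to each side, the most stable state 1 was found at large genes with many separate regions. Nfia, a transcription factor of the nuclear factor I family, had 69600 bp in 36 regions (12.6% of the window), and its state 1 length in single strains ran from 72200 bp in PWK/PhJ through a median of 81600 to 108400 bp in NZO/HlLtJ. Rbm47, an RNA-binding protein, had 62400 bp in 31 regions (42.9% of the window). The 5 overlapping Ugt1a genes, of a family that conjugates drugs to glucuronic acid, share their last exons and had 48600 to 60200 bp, largely the same bins. In Ugt1a10 the strains ran from 51400 bp in PWK/PhJ through a median of 78400 to 109000 bp in NOD/ShiLtJ. Reads of similar sequences within this locus may be placed uncertainly. The others of the 20 were Zbtb20, a repressor of alpha-fetoprotein (54800 bp), Rora, Adk, Arhgap26, Nfib, Shb, Mtss1, Arid5b, Stard13, Vps13d, Mob3b, Pcx, which makes oxaloacetate from pyruvate (39000 bp), and Lpp (38800 bp). PWK/PhJ had the least state 1 at 12 of these 20 genes, with the 5 overlapping Ugt1a genes each counted, and NZO/HlLtJ the most at 9. Over all autosomal bins, 2.28% were in state 1 in PWK/PhJ, the least of any strain, and 2.81% in NZO/HlLtJ.

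The labelled cell type was set against marker genes, and lists of liver and non-liver genes were read in the same way. Over all 20665 autosomal protein-coding genes, 61.5% had a stable state 1 bin in the gene or within 5 kb, with a median of 800 bp, and 51.8% had one within 1 kb of a start. All 20 plasma protein genes, the hepatocyte markers, had one (median 9500 bp, or 42.0% of the window against 1.95% over all genes), all 20 within 1 kb of the start. Serpinc1 and Fgb, a fibrinogen chain, had 13200 bp each and Apoh and Apoc3 5600 bp each. Some windows overlap and can hold the same bins, such as those of Apoa1 and Apoc3, or of Apoa2 and the transcription factor Nr1i3. Alb, albumin, had 10000 bp in 8 regions, and its length in single strains ran from 8400 bp in A/J through a median of 11000 to 12600 bp in DBA/2J.

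All 20 metabolic enzymes had stable state 1 (median 7900 bp), 19 of them within 1 kb of the start. Cps1, the entry enzyme of the urea cycle, had 14000 bp and Glul, glutamine synthetase, 2600 bp. Cyp2e1, which oxidises ethanol and small toxic molecules, had 4200 bp in 5 regions with no bin shared by all strains. Its state 1 length in the gene and 5 kb to each side was 0 in CAST/EiJ, 4600 bp in C57BL/6J, 6000 bp in NZO/HlLtJ, 7800 bp in A/J, 8000 bp in 129S1/SvImJ, 8400 bp in WSB/EiJ, 9200 bp in DBA/2J, 9600 bp in PWK/PhJ and 10600 bp in NOD/ShiLtJ. CAST/EiJ was thus the one strain without it. Ass1, argininosuccinate synthase, ran from 7000 bp in PWK/PhJ through a median of 16200 to 25400 bp in DBA/2J.

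All 20 hepatocyte transcription factors had it as well (median 8600 bp), 18 of them within 1 kb of a start. The longest totals were at nuclear receptors: Nr5a2 had 35000 bp in 22 regions, and Rxra, the partner of many nuclear receptors, 32800 bp. Ppara, the fatty acid sensor, had 32400 bp, Nr1h4, the bile acid receptor, 23000 bp and Hnf4a 18000 bp. Other nuclear receptors of the list had less, such as Nr1h3 and Nr0b2 with 6800 bp each. As a share of the window, Nr5a2 (27.3%), Nr1h4 (25.7%) and Hnf4a (23.6%) lay below the list median of 33.0%. Rxra (33.8%) and Ppara (39.4%) lay above it. Nr5a2 ran from 37000 bp in C57BL/6J through a median of 40000 to 50800 bp in 129S1/SvImJ. Foxa3, a small gene, had 15000 bp, or 73.5% of its window. All 20 clock genes had it (median 7900 bp), from 1800 bp at Bhlhe41 to 53400 bp at Rora, and all 20 ubiquitous genes had it with a shorter median of 3300 bp, from 1400 bp at Sdha, a subunit of succinate dehydrogenase, to 7400 bp at B2m, the light chain of class I molecules. As a share of the window the medians were closer, at 23.0% for the clock genes and 20.3% for the ubiquitous genes. These lists are counts beside the 61.5% over all genes, and they were not tested.

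Markers of other cell types of the liver varied. Of 20 liver endothelial markers, 12 had a stable state 1 bin (60%, close to the share over all genes) with a median of 500 bp, and 7 had one within 1 kb of a start. Gpr182 had 6400 bp and Stab2, a scavenger receptor of the sinusoids, 5600 bp, while Kdr, Cdh5, Clec4g, Tek, Robo4, Cldn5, Eng and Plvap had none. Of 19 autosomal Kupffer cell and leukocyte markers, 6 had one (31.6%) and 2 within 1 kb of a start: Fcer1g had 5800 bp, in a window that reaches into Apoa2, and Cd68 3600 bp, while Clec4f, Adgre1, Marco and Ptprc were among the 13 with none. Of 20 bile duct and stellate cell markers, 4 had one (20%), all 4 within 1 kb of a start. Among them were Prom1 with 5000 bp, Reln with 1000 bp and Sox9 with 800 bp, and the one with the most is not named here. Krt7, Krt19, Epcam, Lrat, Des and Col1a1 were among the 16 with none. Whether other cells contributed to any region was not tested.

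Regulators of other tissues and neuronal genes are typically not active in hepatocytes. Among 20 developmental regulators only Gata4 (11400 bp) and Gsc (400 bp) had stable state 1, and among 20 neuronal genes only Syt1 (5600 bp), Rbfox3 (3000 bp) and Dlg2 (1000 bp) did. None of the 40 had a stable state 1 bin within 1 kb of a start. Gata4 codes for a transcription factor of early liver development and ran from 10800 bp in A/J through a median of 14200 to 20600 bp in 129S1/SvImJ.

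**Figure D1:**
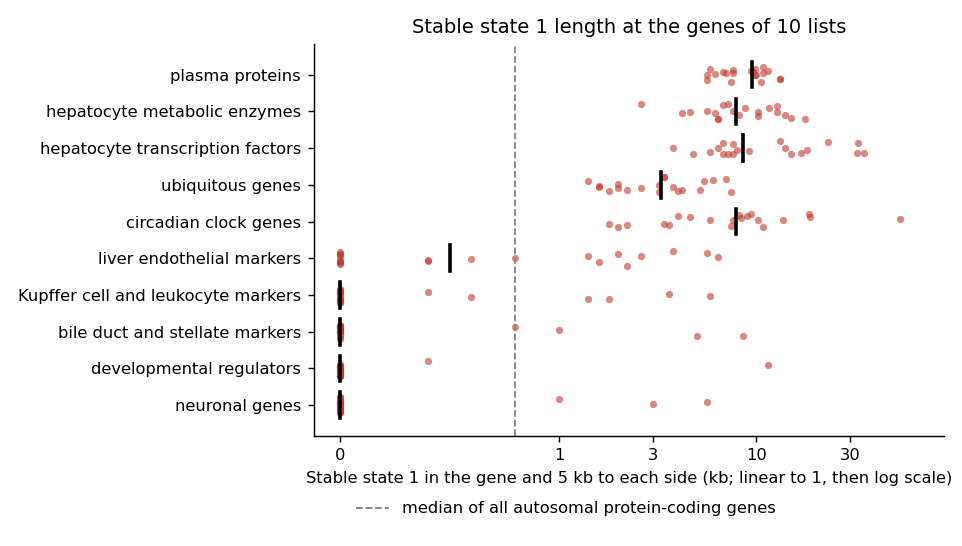
Length of stable state 1 in the gene and 5 kb to each side (kb, horizontal axis, linear to 1 and logarithmic above) for each gene of 10 lists of up to 20 genes; 1 point is 1 gene, black bars are list medians and the dashed line is the median of all autosomal protein-coding genes, 800 bp. The plasma protein genes all lie at 5600 bp or more, while 18 of 20 developmental regulators lie at 0.

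Where a start itself lay in state 1 it was the less common case. Over genes with a listed start, 8.57% had one in a stable state 1 bin and 40.0% had one in a stable state 3 bin. Among the plasma proteins with a listed start, 2 of 16 had one in stable state 1 (Apoa2 and Serpinc1) and 15 of 16 had one in stable state 3, Apoa2 having both at different starts. Among the hepatocyte transcription factors the counts were 5 and 15 of 19, with Nr5a2, Hnf4a, Nr1i2, Srebf1 and Nr1i3 in the first. Among the ubiquitous genes they were 1 (Gusb) and 14 of 16. Among the endothelial markers with a listed start, 2 of 12 had one in stable state 1, and among the bile duct and stellate cell markers 1 of 13. The Kupffer cell, developmental and neuronal lists had none there. No listed start of the endothelial, Kupffer cell, developmental or neuronal lists lay in stable state 3, and 1 of the bile duct and stellate cell list did.

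Stable state 1 bracketed state 3. Of the regions, 50.3% ± 1.75 (SD, n = 9) had state 3 within 5 bins (1 kb) of a border in a given strain, 43.2% on 1 side and 7.03% on both, with strains between 48.1% and 53.1%. The same share was 1.56% for stable regions of state 2, 3.16% for state 4 and 0.186% for state 6. State 1 exceeded these by 48.7, 47.1 and 50.1 points, in each of the 9 strains (two-sided exact test that permutes the sign of each strain's difference, adjusted over the 3 states, p = 0.0039, the smallest that 9 strains can give). Stable states 2, 4 and 6 had only 0.940% to 2.22% of their bins within 1 kb of a start and state 3 83.9%, so the difference follows in part from place. State 8, with 18.3% there against 21.5% for state 1, was not compared, so the trait cannot be called particular to state 1. Counted from state 3, 97.6% of the 10740 stable state 3 regions had stable state 1 within 1 kb on at least 1 side and 81.1% on both. Of stable state 1 regions within 1 kb of a start 87.2% lay beside stable state 3, against 23.6% at 1 to 10 kb and 9.81% beyond 10 kb.

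The profile of states was read around 6270 gene starts chosen because the most upstream listed start of the gene lay in stable state 3. State 3 at 98.2% and state 1 at 1.15% of these starts therefore follow from the choice, and are no trait of gene starts in general. State 1 rose to 69.8% ± 2.70 (SD, n = 9) at 600 bp upstream and to 67.5% ± 3.05 at 800 bp into the gene. State 3 reached further into the gene than upstream, at 33.8% at 600 bp downstream and 14.4% at 600 bp upstream. State 1 had a longer tail into the gene, 31.8% at 2000 bp downstream against 16.9% at 2000 bp upstream, and state 8 followed it there, reaching 38.3% at 1600 bp downstream.

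Which side held more state 1 therefore depended on the distance. Within 200 to 1000 bp of the start it covered 56.7% ± 2.44 of upstream bins and 47.6% ± 2.73 of downstream bins (SD, n = 9), a downstream minus upstream difference of -9.11 ± 1.01 points with the same sign in 9 of 9 strains (exact sign-flip permutation, p = 0.0039). Over 200 to 2000 bp it covered 40.7% ± 1.74 upstream and 44.0% ± 2.43 downstream, a difference of 3.22 ± 1.05 points, downstream higher in 9 of 9 strains (p = 0.0039, same exact test). Both comparisons were chosen after the profile had been seen. A stable state 1 bin lay within 2000 bp downstream at 96.0% of these starts, upstream at 91.8% and on both sides at 88.4%.

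**Figure D2:**
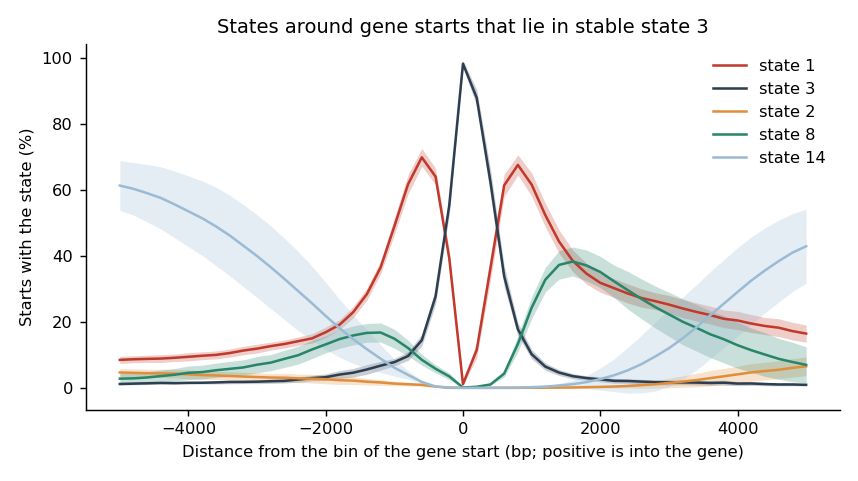
Share of 6270 gene starts, chosen for lying in stable state 3, with each state (%, vertical axis) by distance from the bin of the start (bp, positive into the gene); lines are means over 9 strains and bands 1 SD. State 3 stands at 98.2% at the start by that choice, with state 1 peaking at 69.8% at 600 bp upstream and 67.5% at 800 bp downstream.

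Over all borders, several states were found near stable state 1 far more often than elsewhere. The 311031 bins lying 200 to 1000 bp outside a border were compared with all autosomal bins outside the regions. That comparison set includes the 311031 bins themselves, so each ratio understates the contrast with bins farther away. State 3 made up 13.8% ± 1.08 of the bins near a border and 0.404% of the comparison set (SD, n = 9), a log2 ratio of 5.10 ± 0.03, or 34.3-fold. State 8 made up 13.5% (20.3-fold), state 2 25.9% (11.2-fold), state 9 8.57% (11.2-fold) and state 4 8.21% (2.92-fold). State 14, which covers 78.1% of the comparison set, fell to 6.70% (log2 ratio -3.60 ± 0.42), and state 13 to 0.1096% against 11.3% (log2 ratio -6.83 ± 0.66). Each of these had the same sign in 9 of 9 strains (by exact permutation of signs, adjusted p = 0.0046). State 6 was higher in 8 of 9 strains (adjusted p = 0.0085, same exact test), but in the first bin alone, and with members in 9 of 9 strains, it was lower than elsewhere; state 4 was also lower in the first bin (log2 ratio -1.44). State 7 did not pass (adjusted p = 0.152).

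The neighbours differed with the distance to gene starts. Regions over 10 kb from any start were not all outside genes, since 60.4% of their bins lay in a protein-coding gene. Beside regions over 10 kb from any start, state 2 took 43.1% ± 6.06 of the bins at 200 to 1000 bp, with strains from 32.6% to 53.0%, and beside regions within 1 kb of a start it took 5.17% ± 1.71, with strains from 2.75% to 7.64% (SD, n = 9). These ranges did not overlap. State 4 likewise took 12.3% far from starts and 3.32% near them. State 3 went the other way, at 2.91% far and 28.5% near, as did state 8 at 4.36% far and 24.1% near, and state 9 at 2.44% and 17.2%. The far minus near differences were 38.0 ± 4.76 points for state 2, -25.6 ± 1.39 for state 3 and -19.7 ± 2.42 for state 8, with the same sign in each of the 9 strains (by exact permutation of signs, adjusted p = 0.0039, chosen after the profiles had been seen). The 2 groups were split by distance to a start, and state 3 lies mostly at starts. Of stable state 8 bins, 18.3% lay within 1 kb of a start and 9.42% over 10 kb from any, against 2.25% and 83.4% of all bins. The differences in states 3 and 8 therefore follow in part from the split.

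**Figure D3:**
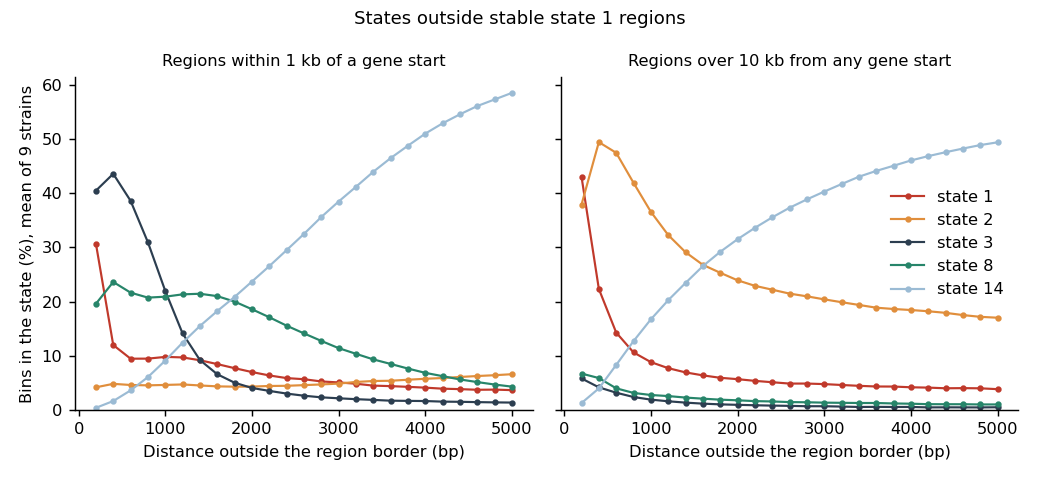
Share of bins in 5 states (%, mean of 9 strains) by distance outside the border of a stable state 1 region (bp), for regions within 1 kb of a gene start (left) and over 10 kb from any start (right). At 400 bp state 3 leads on the left at 43.6% and state 2 on the right at 49.4%, and state 14 takes over with distance on both.

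Calls in single strains showed how firmly the regions held. To measure this without the strain itself, bins were chosen with the other 8 strains (state 1 in at least 7 of 8) and read in the strain left out. On average 93.6% ± 3.38 (SD, n = 9) of 199034 to 212446 bins were in state 1 there. The lowest was PWK/PhJ at 86.7%, then CAST/EiJ at 90.5%, WSB/EiJ at 93.4%, A/J at 93.5%, C57BL/6J at 94.0%, DBA/2J at 94.3%, NOD/ShiLtJ at 95.1%, NZO/HlLtJ at 96.6% and 129S1/SvImJ at 98.3%. The 3 wild-derived strains were the lowest 3, with WSB/EiJ next to A/J.

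Chosen and read in the same way, state 2 recurred at 84.6% ± 6.67, state 4 at 83.3% ± 8.49, state 6 at 84.9% ± 6.47, state 8 at 86.8% ± 8.71 and state 13 at 88.6% ± 8.11 (SD, n = 9). State 1 exceeded state 2 by 8.96 points, state 4 by 10.3 and state 6 by 8.66, in each of the 9 strains (by exact permutation of signs, adjusted p = 0.0067), and state 8 by 6.84 points in 8 of 9 strains (adjusted p = 0.0234, same exact test). The difference from state 9, 7.87 ± 17.3 points, did not pass (adjusted p = 0.0898), with state 9 at 33.6% in PWK/PhJ and at 86.0% or more in the other strains. State 3 recurred more often than state 1, at 95.9% ± 1.93; state 1 minus state 3 was -2.35 ± 2.83 points, with state 1 higher in 2 of 9 strains (adjusted p = 0.0426, exact). That call was lost when any strain but NOD/ShiLtJ was left out, with adjusted p of 0.0511 to 0.0852, where 8 strains allow fewer sign patterns.

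Recurrence of state 1 near and far from gene starts could not be separated. It was 95.2% ± 1.85 within 1 kb of a start and 92.6% ± 4.42 over 10 kb from any (SD, n = 9), a difference of 2.65 ± 4.06 points, higher near starts in 7 of 9 strains (exact sign-flip permutation, p = 0.082). PWK/PhJ differed most, at 93.9% near and 84.3% far, and NZO/HlLtJ went the other way, at 94.3% near and 97.7% far.

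When a member bin was not in state 1, it was mostly in a state also found beside the regions. By the rule, each strain could be an exception at a bin, and it was one at 1.45% of member bins in 129S1/SvImJ, 2.94% in NZO/HlLtJ, 4.28% in NOD/ShiLtJ, 4.98% in DBA/2J, 5.30% in C57BL/6J, 5.73% in A/J, 5.82% in WSB/EiJ, 8.52% in CAST/EiJ and 12.1% in PWK/PhJ. The genome-wide share of state 1 ran from 2.28% of autosomal bins in PWK/PhJ to 2.82% in 129S1/SvImJ, so the strains with the fewest and the most exceptions also had the most and the least state 1 in all. State 2 made up 45.7% ± 21.1 of the exceptions, state 8 28.4% ± 18.4 and state 3 15.5% ± 12.9 (SD, n = 9), against 2.36%, 0.703% and 0.420% of all autosomal bins not in state 1, exceptions included. Each was higher in 9 of 9 strains (by exact permutation of signs, adjusted p = 0.0085), and state 14 was lower, at 3.05% against 78.6%. Set against the bins beside the regions instead, the excess of state 2 was 14.03 points (adjusted p = 0.0564) and of state 8 11.9 points (adjusted p = 0.0508), and the difference for state 3 was -1.497 points (adjusted p = 0.691), by the same exact test.

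Strains differed widely in what replaced state 1. State 2 made up 81.9% of the exceptions in C57BL/6J, 66.7% in WSB/EiJ and 63.5% in PWK/PhJ, but 28.6% in A/J and 15.01% in NZO/HlLtJ. State 8 made up 59.3% in A/J, 50.8% in NOD/ShiLtJ and 41.4% in NZO/HlLtJ, but 7.85% in C57BL/6J. State 3 made up 37.0% in NZO/HlLtJ and 32.1% in DBA/2J, and 4.99% in WSB/EiJ. With 1 segmentation per strain, such a profile cannot be told apart from a difference in library depth or in the calling of that strain.

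The replacing state also differed with place. In regions over 10 kb from any start, state 2 made up 63.4% ± 17.6 of the exceptions, against 19.99% ± 18.1 in regions within 1 kb of a start (SD, n = 9), a difference of 43.4 ± 12.7 points in 9 of 9 strains (by exact permutation of signs, adjusted p = 0.0047). State 3 made up 6.21% far and 30.02% near, and state 8 17.8% far and 42.6% near, both lower far from starts in 9 of 9 strains (adjusted p = 0.0047, same exact test). These comparisons were chosen after the data had been seen. They use the same split by distance to a start, so the differences in states 3 and 8 follow in part from that split. Region edges lie by the rule where fewer strains share the state, so more exceptions there follow from it and are given as a description. In regions of at least 5 bins, 10.7% ± 5.50 of calls in the outermost bin were not state 1, 4.71% ± 3.41 in the second and 2.73% ± 2.19 further in (SD, n = 9).

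**Figure D4:**
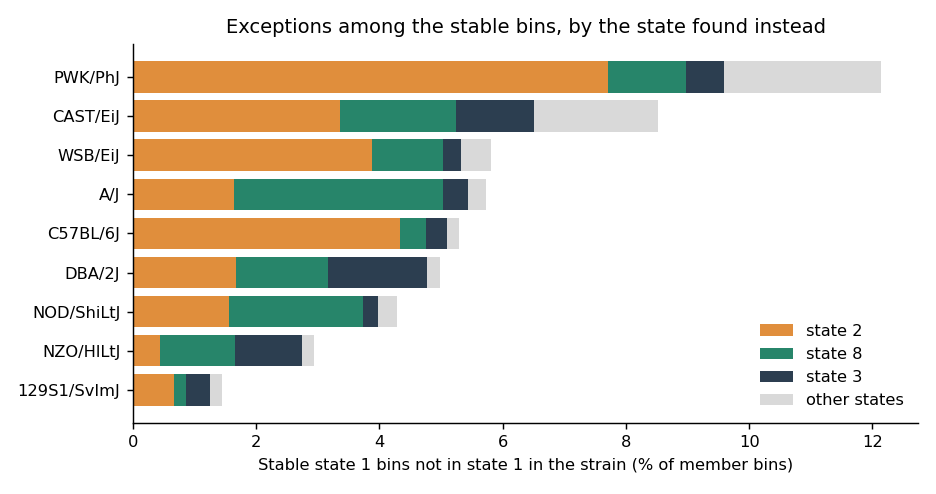
Member bins that were not in state 1 in each strain (% of the 232608 member bins, horizontal axis from 0), divided by the state found instead. The bars run from 1.45% in 129S1/SvImJ to 12.1% in PWK/PhJ, with state 2 filling 81.9% of the bar of C57BL/6J and state 8 filling 59.3% of that of A/J.

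Exceptions were shared unevenly between strains. Among the 35926 bins with exactly 2 exceptions, CAST/EiJ and PWK/PhJ were the pair in 5696 (15.9%), which is 48.6% of those where CAST/EiJ was an exception and 36.1% of those where PWK/PhJ was. The next pair, PWK/PhJ and WSB/EiJ, made up 2984 (8.31%), and the rarest, 129S1/SvImJ and NZO/HlLtJ, 176 (0.490%). These counts follow in part from how many exceptions each strain had.

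Some whole regions were missing in a strain. Regions without a single state 1 bin numbered 422 (1.00%) in 129S1/SvImJ, 748 in NZO/HlLtJ, 1450 in DBA/2J, 1636 in C57BL/6J, 1668 in NOD/ShiLtJ, 1792 in WSB/EiJ, 1978 in A/J, 2944 in CAST/EiJ and 3766 (8.92%) in PWK/PhJ. Of the 16294 regions of at least 1 kb, 24 were missing in 129S1/SvImJ, 24 in NZO/HlLtJ, 351 in CAST/EiJ and 468 in PWK/PhJ, with 47 to 92 in the other 5. In these longer losses, state 14, which covers most of the genome, filled 63.1% of the bins in 129S1/SvImJ, a share that rests on 24 regions. It filled 4.80% in C57BL/6J, where state 2 filled 79.5%, and 13.5% to 35.3% in the other strains.

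Examples among the 3 longest losses of each strain are given here. In 129S1/SvImJ, these 3 had Cyp2b9 or Cyp2b13 as the nearest protein-coding gene, drug-metabolising cytochrome P450 genes of one cluster on chromosome 7. The region at chr7:26139001-26144400, 28950 bp from Cyp2b9, had state 1 in all 27 bins in 7 strains and in 24 of 27 bins in CAST/EiJ, while all 27 bins were in state 14 in 129S1/SvImJ. In WSB/EiJ the longest, 3600 bp, lay in Acnat2, and the next, 3000 bp in Mup20, which codes for a major urinary protein, was in state 14 in all 15 bins, against 13 to 15 bins in state 1 in each other strain. Both gene families have near-identical copies, so reads there may be placed uncertainly. In NOD/ShiLtJ these 3 lay at or near B4galnt1, a ganglioside-synthesising enzyme; the longest, chr10:127152801-127157200, was in state 14 in all 22 bins, with state 1 in 18 to 22 bins in each other strain. In CAST/EiJ the longest, 4800 bp and lying 26529 bp from St6gal1, the enzyme that adds sialic acid to plasma glycoproteins, was in state 14 in 23 of 24 bins, and each other strain had state 1 in at least 22 of them. In C57BL/6J the longest, 3200 bp in Kif21a, was in state 2 in 11 of 16 bins, with state 1 in all 16 bins in the 8 other strains. In PWK/PhJ the longest was 5600 bp, 21349 bp from Arl5a, with 24 of 28 bins in state 14.

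**Figure D5:**
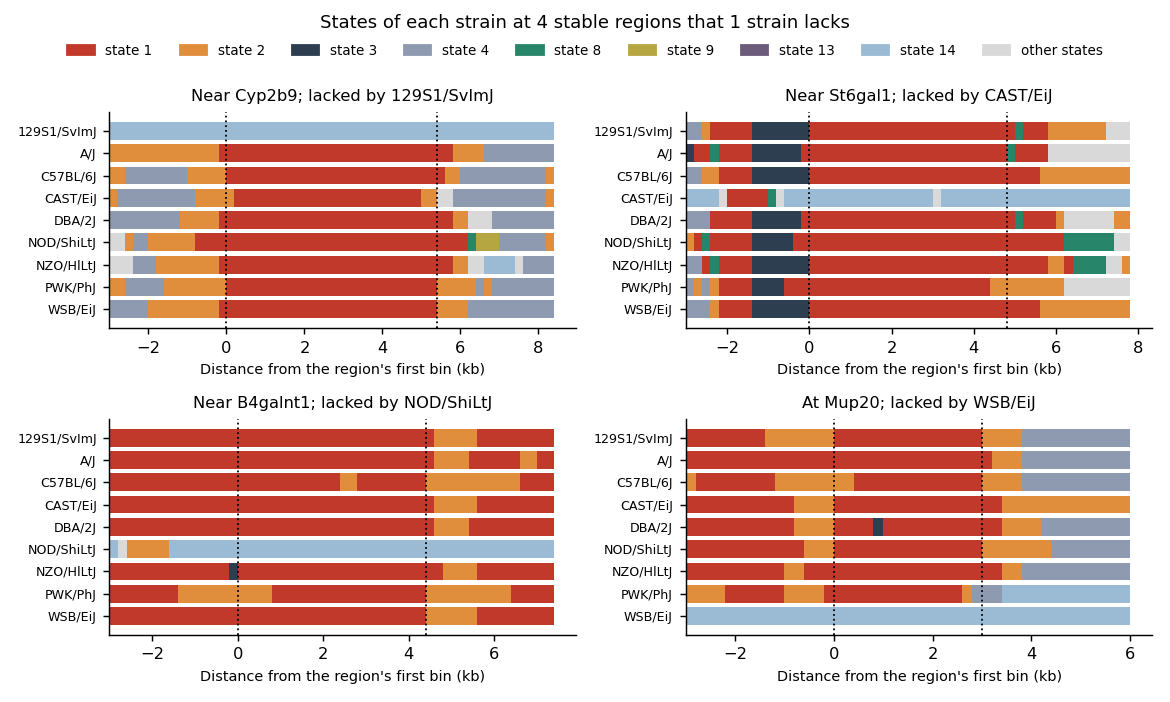
State of each 200-bp bin (colour) in each of 9 strains (rows) at 4 stable state 1 regions that 1 strain lacks, by distance from the region's first bin (kb); dotted lines mark the region. In the lacking strain state 14 fills 27 of 27 bins near Cyp2b9, 23 of 24 near St6gal1, 22 of 22 near B4galnt1 and 15 of 15 at Mup20.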

How the data were processed

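The chromatin of hepatocytes was profiled in 9 strains with 13 libraries each. The deposited files give, per the file headers and values, 1 state number from 1 to 14 per 200-bp bin and strain; this number is a category and was used only as a name. The genome build is mm10, per the submitters' processing notes, which also list FastQC 0.11.5 and MACS 1.4.2 with no role. The aligner and the segmentation tool are not given in the sources used here, and the depth behind a call is unknown.

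A bin on the 19 autosomes was a member when in state 1 in at least 7 of 9 strains, and adjacent members were merged. The members and the gene lists were chosen with earlier results of these data known. Genes, promoters and microRNAs came from RefSeq tables for GRCm38.p6, with starts listed for 16457 of 20665 autosomal protein-coding genes. Text names the 20 genes with the most stable state 1, the gene at or nearest to each of the 20 longest regions, genes of the 10 lists, and genes chosen for a printed sequence; genes at lost regions, the state 3 promoters and the X chromosome genes were chosen after their values were seen. Values of a few genes are not reported here.

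Differences over strains were tested by a two-sided exact permutation of signs (512 patterns, smallest p 0.0039, threshold 0.05), Benjamini-Hochberg adjusted within each family of states. P-values measure only the spread between strains. The tests were checked on simulated data. Comparisons by distance to starts and of the sides of a start were chosen after seeing the data. Alternatives changed the number of strains needed, the merging, the windows, the reference bins and the strains included. Tables were read with pandas 2.3.3, computed with numpy 2.4.6 under Python 3.11.15 and drawn with matplotlib 3.10.9.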

Additional observations from a re-analysis of the deposited data

Results flagged for a closer look

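In each of 167 genes, drawn from the gene lists and the 20 genes with the most stable state 1, whose length varied over strains, the state 1 length in the gene and 5 kb to each side was compared over the 9 strains, and 21 genes had 1 strain set apart by a gap that was large against the whole range (Dixon's 95% limit). For normally distributed values, chance sets apart about 1 in 20 groups by this limit. Lengths come in steps of 200 bp, and where no other strain has state 1, any call in 1 strain is set apart by the rule. The share of 1 in 20 does not hold for such genes, so the count of 21 cannot be set against it.

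Among hepatocyte genes, Ahsg had 12800 bp in NOD/ShiLtJ against 9200 to 10800 bp in the other strains. Nr1i2, a xenobiotic receptor, had 20800 bp in NOD/ShiLtJ against 16600 to 18600 bp. Foxa3 had 13400 bp in PWK/PhJ against 15000 to 16200 bp. Nr0b2, a repressor in bile acid synthesis, had 5800 bp in C57BL/6J against 7200 to 8400 bp.

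Among clock genes, Per1 had 6400 bp in PWK/PhJ against 8000 to 9600 bp, Nfil3 had 10400 bp in NOD/ShiLtJ against 8200 to 9200 bp, and Bhlhe40 had 6800 bp in DBA/2J against 8200 to 9600 bp. Among ubiquitous genes, Ppia had 1200 bp in DBA/2J against 1800 to 2200 bp, Tbp had 3200 bp in PWK/PhJ against 2000 to 2600 bp, and Polr2a had 5200 bp in NZO/HlLtJ against 2200 to 3600 bp.

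The other 11 genes belong to other cell types or tissues and had short lengths. Pecam1 had 0 bp in A/J against 400 to 600 bp. Tyrobp had 1000 bp in CAST/EiJ against 0 to 400 bp, and Gsc had 2200 bp in WSB/EiJ against 0 to 800 bp. In the rest every other strain was at 0: Epcam had 1000 bp in CAST/EiJ, Robo4 400 bp, Cd3e 600 bp, Grin1 400 bp and Camk2a 600 bp in NZO/HlLtJ, Pax3 400 bp in PWK/PhJ, Gria2 200 bp in WSB/EiJ and Slc17a7 400 bp in 129S1/SvImJ.

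Of 41 other measures over the 9 strains, 4 had a strain set apart, and it was PWK/PhJ each time. Beside stable state 1 regions, state 7 made up 0.0794% of bins in PWK/PhJ against 0.0090% to 0.0350% in the other strains, and state 14 made up 12.6% against 4.59% to 7.12%. Bins of state 8 chosen with the other strains recurred at 67.0% in PWK/PhJ against 82.7% to 95.6%, and those of state 9 at 33.6% against 86.0% to 96.4%.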

How the results depend on the processing

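Of 402 alternatives run for 36 results, 379 kept the direction and the side of the threshold (counts stayed within 1.5 times), and 23 did not. Of the stable state 1 regions 50.3% lay beside state 3; this was 54.9% for members in 9 of 9 strains, 40.06% with 1 bin outside a border and 53.6% with 10. State 1 minus state 3 in recurrence lost its call without any 1 of 8 strains, at -2.55 points without 129S1/SvImJ, -2.52 without A/J, -2.69 without C57BL/6J or WSB/EiJ, -2.36 without CAST/EiJ, -2.65 without DBA/2J, -2.59 without NZO/HlLtJ and -2.09 without PWK/PhJ. State 1 minus state 9 passed at 7.38 points with the state required in all 8 other strains. State 1 downstream minus upstream of starts turned to -9.11 points within 1000 bp. In the first bin outside a border the log2 ratio was -1.44 for state 4, -0.80 for state 6 and -2.01 for state 7; for members in 9 of 9 strains it was -0.30 for state 6 and -2.13 for state 7, and -0.72 for state 7 beside regions of at least 2 bins. Compared with the bins beside the regions, exceptions differed by 14.03 points in state 2, -1.497 in state 3, -8.23 in state 4 and 11.9 in state 8. Apart from what the alternatives themselves change, the cause was not tested. No paired analysis was possible because each strain has 1 segmentation, made from all its libraries, with no value per mouse; this concerns pairing by mouse or replicate number, since every test compared values within a strain. Unknown depth limits every comparison between strains.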

Other observations

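The X chromosome was outside the rule. Applied there, the same threshold gave 258 bins in 65 regions, 0.0302% of 855156 bins, or 0.380 regions per Mb. In single strains, 0.0403% to 0.111% of X bins were in state 1, against 2.28% to 2.82% of autosomal bins, and state 13 took 74.7% to 89.0% of the X. Of the 258 bins, 57.4% were in state 1 in 9 of 9 strains, and the share not in state 1 ran from 4.26% in 129S1/SvImJ to 11.2% in WSB/EiJ. Of 966 X-linked protein-coding genes, 9 (0.932%) had such a bin in the gene or within 5 kb. Ddx3x, an RNA helicase, had 4000 bp, with strains from 3600 to 5200 bp, and Kdm6a, a demethylase of H3K27, had 2400 bp, with strains from 2200 to 6000 bp.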
